A study of Mus musculus with 24 samples.

Results

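Matrix metalloproteinases cut the extracellular matrix and many secreted proteins, and tissue inhibitors of metalloproteinases (TIMPs) bind and block them. They were followed here through experimental autoimmune myocarditis (EAM). The set held 10 genes, taken by symbol from the 41388 Ensembl genes counted: 6 metalloproteinases (Mmp2, Mmp9, Mmp8, Mmp3, Mmp12 and Mmp14) and 4 inhibitors (Timp1, Timp2, Timp3 and Timp4). RNA was sequenced from the hearts of 24 wild type BALB/cAnNCrl mice (labelled Balb/c), all males immunized at 8 to 10 weeks of age, with 4 EAM hearts and 4 control hearts at D10, D15 and D21 of the immunization course. EAM mice received a cardiac myosin heavy chain peptide emulsified in adjuvant (SCFA) at the start and again a week later, with pertussis toxin (PTX) at the start. Control mice received the adjuvant with PBS and the same toxin, so both groups carried the adjuvant and the toxin and differed by the peptide. Each library came from a piece of 1 heart, and the hearts were chosen as far as possible for the presence of inflammation, so the EAM groups do not stand for every immunized mouse. Because whole tissue was measured, fewer cells of a type and less RNA per cell cannot be told apart.

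Metalloproteinases are made as inactive precursors and are opened by other proteases, so the transcript level is only the first of several controls on their activity. In the heart, fibroblasts are a known source of Mmp2, Mmp14 and the inhibitors, neutrophils store Mmp8 and Mmp9 in granules, and macrophages make Mmp12. Mmp14 sits in the cell membrane and activates the Mmp2 precursor together with Timp2, and Timp3 is held in the matrix.

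Library totals ran from 15814863 to 24980864 counts, so that 3 counts, the limit set by a count of 0, were worth between 0.120 and 0.190 CPM (counts scaled to library size). All 10 genes had reads in all 24 libraries and passed the filter on low counts at each time point. Levels of a gene between hearts are given in CPM, and levels between genes in RPKM, the CPM per kilobase of merged exons. A gene was called induced or repressed where edgeR's quasi-likelihood test gave a false discovery rate (FDR, Benjamini-Hochberg over all genes tested) under 0.01 with a change of 2-fold or more. Ptprc, which encodes the leukocyte antigen CD45, was used as a check of the labels. Its level was between 15.0 and 37.9 CPM in the 12 control hearts, between 27.6 and 195 CPM in D10 EAM hearts, between 247 and 312 CPM in D15 EAM hearts and between 47.6 and 233 CPM in D21 EAM hearts. Several libraries stood apart within their groups. Replicate 1 of the D10 EAM hearts held the 195 CPM of Ptprc, against at most 55.7 CPM in the others. Replicate 3 of the D15 EAM hearts held the most cardiomyocyte RNA of its group, and replicate 3 of the D21 EAM hearts held the least Ptprc. The D21 EAM libraries also carried another library code than the other 20. Their summed level of 4 atrial markers was between 55.7 and 182 CPM, against between 1663 and 2561 CPM in D21 controls, so the piece of heart, the library code and EAM cannot be told apart at D21. Atrial markers also differed at D10, with between 566 and 1834 CPM in EAM hearts and between 208 and 497 CPM in controls. Replicate 4 of the D15 controls held 240 CPM, against between 1749 and 2311 CPM in the other 3, and the 7 calls at D15 held without it.

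Mmp12, Mmp3 and Mmp8 lie in 1 cluster of metalloproteinase genes on chromosome 9 (GRCm38), at chr9:7344381-7369499, chr9:7445822-7455975 and chr9:7558456-7568485. The others are spread over the genome, with Mmp2 at chr8:92827291-92853420, Mmp9 at chr2:164940780-164955850 and Mmp14 at chr14:54431612-54445364. Timp1 lies at chrX:20870166-20874735, Timp2 at chr11:118301069-118355740, Timp3 at chr10:86300372-86349506 and Timp4 at chr6:115241892-115252205. Timp1, Timp3 and Timp4 each lie within a synapsin gene (Syn1, Syn3 and Syn2) on the opposite strand. The library kit keeps the strand, but whether the counting used it is not stated. Synapsin levels reached at most 5.17 CPM for Syn1, 1.06 CPM for Syn3 and 8.76 CPM for Syn2 in any library.

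The sequences around the transcription start are shown for 3 genes that were induced by more than 4 on the log2 scale at D15 (Mmp3, Mmp12 and Timp1), for Mmp14, and for Timp2, whose EAM and control hearts overlapped. RefSeq (GRCm38.p6) held start windows for 8 of the 10 genes, and for Mmp12 it gave 2 starts, of which the downstream one is printed. Mmp2 and Mmp9 had no entry. Mmp8 and Mmp9 were also induced by more than 4 on the log2 scale at D15, and the Mmp8 window is not printed. Each window runs from 100 bases before to 20 bases after the start, 5′ to 3′ on the strand of the gene. Capitals mark matches on either strand to 3 motifs. The AP-1 motif was searched as TGANTCA. The letters of the TATA box were TATAAA. For the GC box the search used GGGCGG, and no motif overlapped another.
Mmp3, chr9:7445722-7445841, plus strand: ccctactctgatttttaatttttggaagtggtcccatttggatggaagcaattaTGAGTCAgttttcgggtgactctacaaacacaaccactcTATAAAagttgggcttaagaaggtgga
Mmp12, chr9:7347274-7347393, plus strand: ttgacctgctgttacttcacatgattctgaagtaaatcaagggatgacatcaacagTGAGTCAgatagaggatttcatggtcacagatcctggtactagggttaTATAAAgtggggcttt
Timp1, chrX:20870066-20870185, plus strand: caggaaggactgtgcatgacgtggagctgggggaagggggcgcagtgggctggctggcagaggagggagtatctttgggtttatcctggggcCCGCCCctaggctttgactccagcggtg
Mmp14, chr14:54431498-54431617, plus strand: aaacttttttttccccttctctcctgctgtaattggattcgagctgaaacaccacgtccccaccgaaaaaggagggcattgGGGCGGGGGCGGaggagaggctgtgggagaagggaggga
Timp2, chr11:118355392-118355511, minus strand: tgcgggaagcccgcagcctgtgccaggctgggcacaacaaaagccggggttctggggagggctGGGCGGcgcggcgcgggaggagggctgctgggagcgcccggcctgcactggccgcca
Of the 9 windows, the AP-1 letters were found in Mmp3 and in the downstream start of Mmp12, in both as TGAGTCA. They were not found in Mmp8, and the upstream start of Mmp12 held none of the 3 motifs. Of the 32851 windows of all genes, 3.24% held the AP-1 motif. TATAAA was found in Mmp3, in the downstream start of Mmp12 and, on the opposite strand, in Mmp8, against 6.10% of all windows. Counted from the start, these letters lay at −7 to −2 in Mmp3, 5 to 10 in Mmp12 and −3 to 3 in Mmp8. The GC box was found in Mmp14, Timp1, Timp2 and Timp3, against 26.7% of all windows. These matches describe the letters only, and binding was not measured.

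Across the time course, 0 of 10 genes were called at D10, 7 of 10 were induced at D15 and 4 of 10 were induced at D21, and 0 were repressed at any time. Of all genes tested, 0% were called at D10, 18.1% were induced and 12.9% repressed at D15, and 4.13% were induced and 1.16% repressed at D21. All 6 metalloproteinases and Timp1 were induced at D15. Over the 10 genes the median log2 fold change was 1.004 (D10), 3.45 (D15) and 2.19 (D21), against −0.01, 0.02 and −0.01 over all genes tested. Without D10 EAM replicate 1 the D10 values fell to 0.74 for Mmp9, 0.48 for Mmp8, 1.29 for Mmp12 and 1.59 for Timp1. At unadjusted p-values under 0.05, the same test of edgeR passed 6 of the 10 genes at D10 and 2292 of all 15029 genes tested. The 6 were all higher in EAM. DESeq2, the likelihood ratio test and limma-voom called 0 of the 10. Of all genes, DESeq2 induced 48 and repressed 4, the likelihood ratio test induced 45 and repressed 2, and limma-voom called 0. No member had all EAM hearts on 1 side of all controls at D10, where 4.24% of all genes lay above and 3.89% below. At D15, 7 of 10 genes had all EAM hearts above all controls (35.6% of all genes), and 0 had them below (34.7%). At D21, 6 of 10 lay above (16.5% of all genes), and Timp3 lay below (19.4%).

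**Figure D1:**
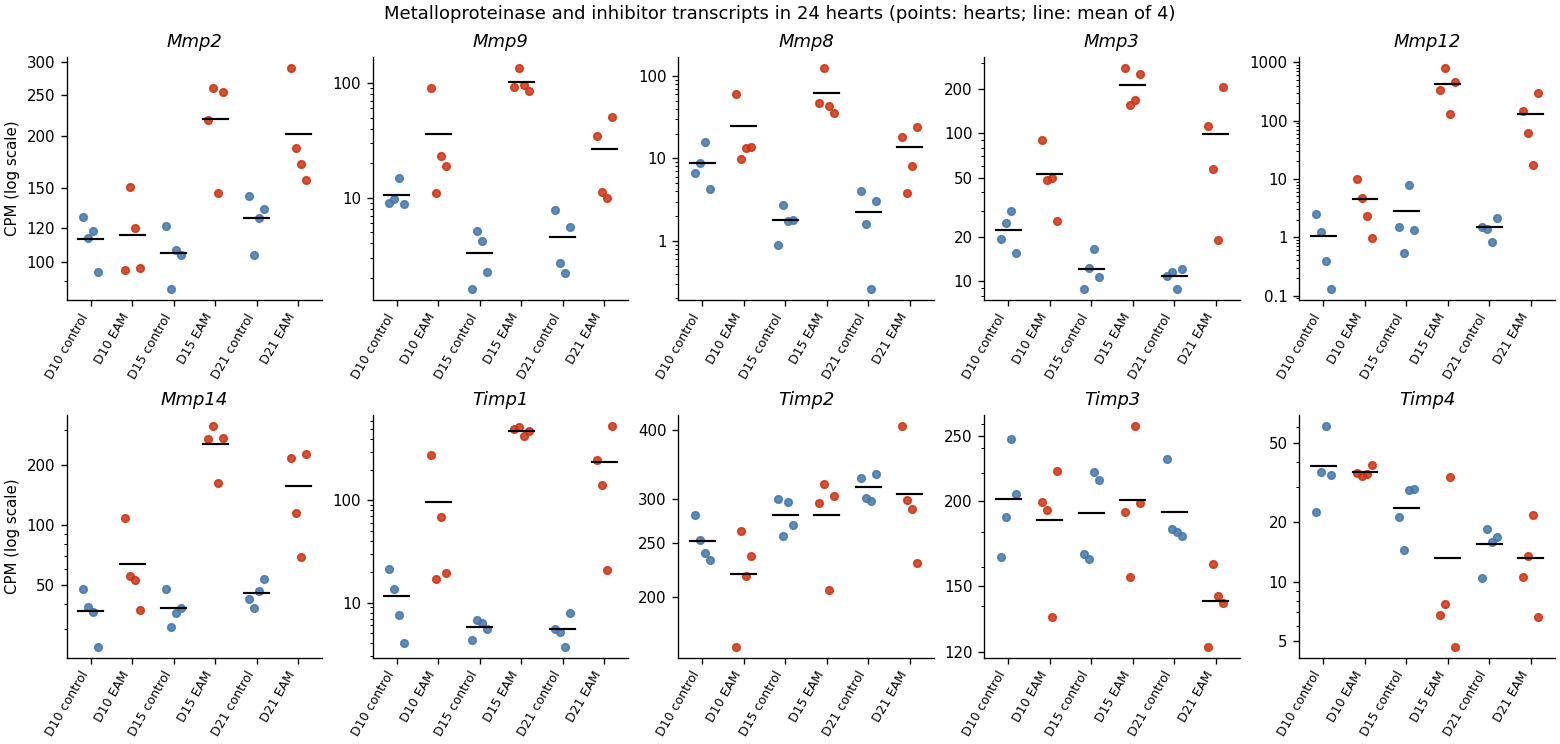
Level in CPM (log axis) of 10 genes in 24 hearts; points are hearts, 4 per group, and lines are group means (blue, control; red, EAM). Timp1 was between 429 and 521 CPM in D15 EAM hearts and between 4.33 and 6.79 CPM in D15 controls, while Timp2 and Timp3 overlapped between the groups at D15.

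Mmp2 and Mmp9 are the gelatinases, which cut denatured collagen and basement membrane collagen. They differed in where they started. Mmp2 was abundant in control hearts and changed least among the 6 metalloproteinases. At D15 its levels were 122, 86.2, 106 and 104 CPM in control hearts and 218, 260, 146 and 254 CPM in EAM hearts. Replicate 3 was the lowest EAM heart, and the groups did not overlap. Mmp2 was induced 2.12-fold (log2 1.09 ± 0.18 SE, FDR 0.00047 by edgeR's quasi-likelihood test). At D10 the 2 groups overlapped, with 94.2 to 128 CPM in controls and 95.7 to 151 CPM in EAM hearts (log2 0.01 ± 0.16 SE). At D21 EAM hearts held 290, 187, 171 and 157 CPM and controls 143, 104, 127 and 133 CPM. Every D21 EAM heart was above every control, yet the difference was not called (log2 0.68 ± 0.20 SE, FDR 0.0324 by edgeR's quasi-likelihood test). The D15 call of Mmp2 lay close to the fold limit and was lost (log2 0.95) when all 12 control hearts were used.

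Mmp9 was low in control hearts and rose far more. At D15 its levels were 1.62, 5.10, 4.16 and 2.24 CPM in controls and 92.8, 135, 96.0 and 85.9 CPM in EAM hearts. All 4 EAM hearts lay far above all controls, and the induction was 31.6-fold (log2 4.98 ± 0.31 SE, FDR 1.04e-06 by edgeR's quasi-likelihood test). At D10 EAM hearts held 90.9, 11.1, 23.3 and 18.9 CPM and controls 9.03, 9.71, 15.0 and 8.88 CPM. Replicate 1 was near the D15 level. Replicates 3 and 4 were above all controls by less, and replicate 2 lay within the range of the controls. At D21 Mmp9 in EAM hearts was 34.8, 11.1, 10.0 and 50.7 CPM and controls 7.80, 2.68, 2.23 and 5.56 CPM. The groups did not overlap, and the difference was not called (log2 2.57 ± 0.63 SE, FDR 0.0187 by edgeR's quasi-likelihood test).

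Mmp8, the neutrophil collagenase, followed Mmp9. At D15 its levels were 0.887, 2.75, 1.72 and 1.77 CPM in controls and 46.8, 125, 43.7 and 35.4 CPM in EAM hearts. The groups were widely apart, with replicate 2 the highest, and the induction was 35.9-fold (log2 5.17 ± 0.52 SE, FDR 1.96e-05 by edgeR's quasi-likelihood test). At D10 EAM hearts held 61.4, 9.82, 13.3 and 14.0 CPM and controls 6.62, 8.70, 15.7 and 4.28 CPM. The single high EAM heart was again replicate 1, and the other 3 overlapped the controls. The D21 EAM hearts held 17.99, 3.82, 8.20 and 24.4 CPM and controls 4.05, 1.58, 0.263 and 3.01 CPM. The groups overlapped and the difference was not called (log2 2.64 ± 0.77 SE, FDR 0.0313). Of all pairs among the 10 genes, Mmp8 and Mmp9 had the closest profiles over the 24 hearts, with a root mean square difference of 0.41 on the log2(CPM + 1) scale after removal of the control mean.

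Mmp3, the stromelysin, cuts proteoglycans and can activate other metalloproteinase precursors. Its D15 levels were 8.92, 12.4, 16.4 and 10.7 CPM in controls and 276, 154, 167 and 251 CPM in EAM hearts. The groups were clearly separated, and the induction was 17.7-fold (log2 4.14 ± 0.26 SE, FDR 1.04e-06 by edgeR's quasi-likelihood test). At D10 the 4 EAM hearts held 90.1, 48.2, 49.7 and 25.4 CPM and controls 19.2, 24.9, 29.6 and 15.5 CPM. Here 3 of 4 EAM hearts were above all controls, as for Mmp9 and Mmp14 at D10. Mmp3 had the lowest unadjusted p of the 10 genes at D10 (0.00647 by edgeR's quasi-likelihood test, FDR 0.328). At D21 EAM hearts held 113, 57.7, 19.1 and 206 CPM and controls 10.8, 11.5, 8.93 and 12.03 CPM. Replicate 3 was close to the controls but above all of them, and Mmp3 was called induced (log2 3.21 ± 0.63 SE, FDR 0.0097).

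Mmp12, the macrophage elastase, had the largest fitted change of the 10 genes at D15 and at D21. Its D15 levels were 1.51, 0.527, 7.96 and 1.36 CPM in controls and 336, 798, 127 and 468 CPM in EAM hearts. Replicate 3 was the lowest EAM heart and still far above the highest control, and the induction was 151-fold (log2 7.24 ± 0.87 SE, FDR 5.78e-05 by edgeR's quasi-likelihood test). Control replicate 3 was the highest control, and without it the log2 value was 8.58 ± 0.83 SE. At D10 EAM hearts held 9.93, 4.80, 2.30 and 0.986 CPM and controls 2.52, 1.22, 0.391 and 0.132 CPM. These groups overlapped, and the lowest control lay near the limit set by a count of 0. At D21 EAM hearts held 149, 61.7, 17.6 and 301 CPM and controls 1.52, 1.39, 0.832 and 2.14 CPM. All EAM hearts were above all controls, and Mmp12 was induced 91.8-fold (log2 6.52 ± 0.92 SE, FDR 0.00512 by edgeR's quasi-likelihood test). Mmp12 overlaps exons of Mmp1b on the opposite strand, and Mmp1b reached at most 0.071 CPM in any library.

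Other genes of the chromosome 9 cluster stayed low in all groups. Mmp13, at the end of the cluster next to Mmp12, reached at most 4.85 CPM in D15 controls and 10.8 CPM in D15 EAM hearts and was not called at D15 (log2 1.16). Mmp1a, Mmp1b, Mmp10, Mmp27, Mmp20 and Mmp7 were too low to be tested at D15, with at most 0.549 CPM in any D15 heart.

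Mmp14, the membrane-type enzyme, was already expressed in control hearts. Its D15 levels were 47.7, 30.7, 35.9 and 38.5 CPM in controls and 271, 316, 163 and 275 CPM in EAM hearts. The groups did not overlap, with replicate 3 again the lowest EAM heart, and the induction was 6.77-fold (log2 2.76 ± 0.22 SE, FDR 4.24e-06 by edgeR's quasi-likelihood test). At D10 EAM hearts held 109, 55.3, 53.2 and 37.6 CPM and controls 48.0, 38.5, 36.6 and 24.5 CPM, and the groups overlapped. At D21 EAM hearts held 218, 116, 69.3 and 229 CPM and controls 42.7, 38.2, 46.6 and 53.7 CPM. All EAM hearts were above all controls, and Mmp14 was called induced (log2 1.82 ± 0.36 SE, FDR 0.0097 by edgeR's quasi-likelihood test).

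Timp1 is the inducible inhibitor of the family. At D15 its levels were 4.33, 6.79, 6.30 and 5.48 CPM in controls and 496, 521, 429 and 475 CPM in EAM hearts. The 4 EAM hearts were close to each other and far above the controls, and the induction was 84.7-fold (log2 6.40 ± 0.16 SE, FDR 9.74e-09 by edgeR's quasi-likelihood test). At D10 EAM hearts held 278, 17.0, 69.3 and 19.7 CPM and controls 21.1, 13.7, 7.55 and 4.01 CPM. Replicates 1 and 3 were above all controls and replicates 2 and 4 were not, and the difference was not called (log2 3.02 ± 0.94 SE, FDR 0.328 by edgeR's quasi-likelihood test). Without replicate 1 the D10 value was 1.59 ± 0.60 SE on the log2 scale. On D21 the EAM hearts held 249, 142, 21.0 and 535 CPM and controls 5.52, 5.21, 3.72 and 7.85 CPM. The D21 EAM hearts spread widely, from replicate 3 at 21.0 CPM, above all controls, to replicate 4 above every D15 heart. Timp1 was induced 43.1-fold (log2 5.43 ± 0.89 SE, FDR 0.00653 by edgeR's quasi-likelihood test).

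The other 3 inhibitors were not called at any time point. Timp2 is the inhibitor that takes part in the activation of Mmp2. Its D15 levels were 300, 258, 297 and 269 CPM in controls and 296, 320, 207 and 304 CPM in EAM hearts. The groups overlapped, and the difference was 0.02 ± 0.14 SE on the log2 scale. The D10 difference was −0.21 ± 0.14 SE and the D21 difference −0.03 ± 0.16 SE. Timp3, the matrix-bound inhibitor, held 167, 165, 221 and 215 CPM in D15 controls and 193, 154, 258 and 199 CPM in D15 EAM hearts, which overlapped (log2 0.08 ± 0.16 SE). At D21 it held 122, 162, 145 and 142 CPM in EAM hearts and 231, 182, 180 and 178 CPM in controls. All 4 EAM hearts were below all controls by a small margin (log2 −0.42 ± 0.12 SE), which was not called (FDR 0.0297 by edgeR's quasi-likelihood test).

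Timp4 is the inhibitor best known from heart muscle. At D15 it held 21.0, 14.4, 28.8 and 29.3 CPM in controls and 6.77, 7.74, 33.6 and 4.70 CPM in EAM hearts. Replicates 1, 2 and 4 were below all controls and replicate 3 was above them all, so Timp4 was not called (log2 −0.82 ± 0.57 SE, FDR 0.218 by edgeR's quasi-likelihood test). Without EAM replicate 3 it was called repressed (log2 −1.82 ± 0.27 SE, FDR 0.000205). That heart also held the highest summed cardiomyocyte markers of its group, at 18800 CPM against between 7326 and 11373 CPM in the other 3 and between 26694 and 31352 CPM in D15 controls. The part of cardiomyocyte RNA in the Timp4 level was not tested. At D10 and D21 the groups overlapped, with differences of −0.11 ± 0.25 SE and −0.22 ± 0.34 SE.

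**Figure D2:**
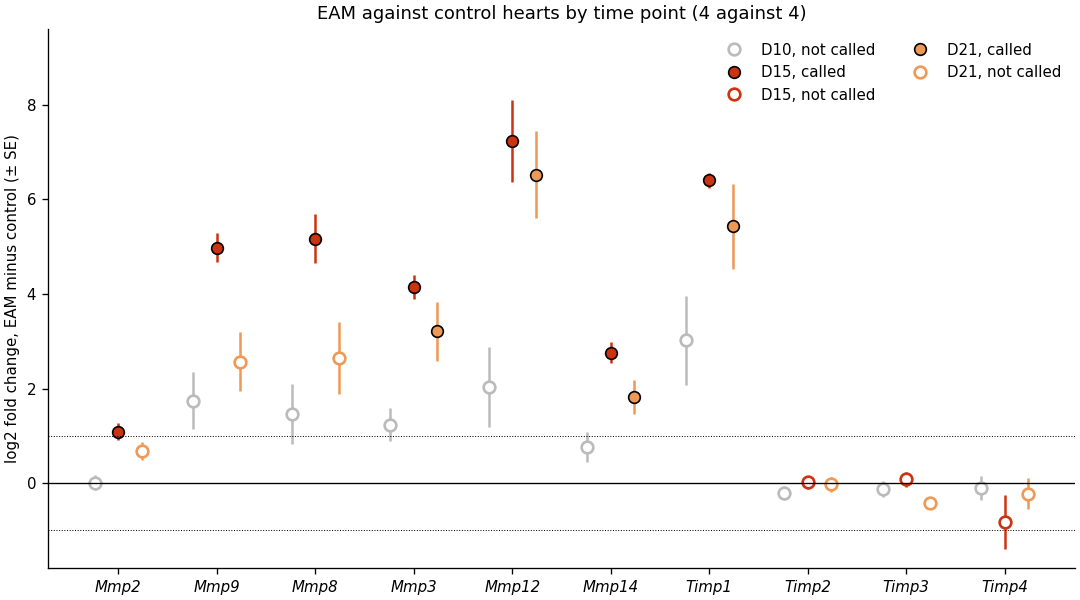
Fitted log2 fold change between EAM and control hearts (points; bars are ± 1 SE, 4 against 4 hearts) for each gene at D10, D15 and D21; filled points passed FDR 0.01 and the dotted 2-fold lines. All 6 metalloproteinases and Timp1 were filled at D15, and Mmp3, Mmp12, Mmp14 and Timp1 at D21, while Timp2, Timp3 and Timp4 stayed between the dotted lines.

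Whether the EAM effect itself differed from one time point to the next was tested as a contrast over all 24 hearts. From D10 to D15 the effect grew for 6 of 10 genes, where 5.38% of all genes tested were called with a positive and 7.35% with a negative contrast. The increase was 5.16 ± 1.401 SE for Mmp12, 3.65 ± 0.98 SE for Mmp8 and 3.19 ± 0.84 SE for Mmp9 on the log2 scale. It was 2.85 ± 0.66 SE for Mmp3, 1.94 ± 0.46 SE for Mmp14 and 1.02 ± 0.28 SE for Mmp2, and the FDR of these 6 lay between 0.00288 and 0.00680 in edgeR's quasi-likelihood test. The calls of Mmp3 and Mmp14 held in all 16 fits that left out 1 library, whereas Mmp2 was called in 5, Mmp12 in 6, Mmp8 in 7 and Mmp9 in 9 of them. The log2 values over these fits were between 0.93 and 1.17 for Mmp2, 4.33 and 6.49 for Mmp12, 3.09 and 4.64 for Mmp8, and 2.89 and 4.20 for Mmp9. The increase of Timp1 was 3.34 ± 1.10 SE and was not called (FDR 0.0189 by edgeR's quasi-likelihood test). DESeq2 and edgeR's likelihood ratio test called it. With D10 EAM replicate 1 left out it was 4.76 ± 0.98 SE and was called (FDR 0.000547). In the D10 to D15 contrast 6 of 8 macrophage, 3 of 8 fibroblast, 2 of 6 T cell and 0 of 8 neutrophil markers were called higher. Called lower were 4 of 7 cardiomyocyte, 2 of 4 atrial and 1 of 6 endothelial markers. The part of these markers in the increases was not tested. From D15 to D21, 0 of 10 genes were called in edgeR's quasi-likelihood test (2.74% of all genes were called with a positive and 0.919% with a negative contrast), and 2 passed an unadjusted p of 0.05, as did 6639 of all 16318 genes tested, so 2 of 10 is below the share of all genes. These were Mmp9 (log2 −2.40 ± 0.85 SE, FDR 0.0396) and Mmp8 (log2 −2.51 ± 1.02 SE, FDR 0.0707). DESeq2, edgeR's likelihood ratio test and limma-voom called 0 of the 10. Of all genes these tests called 594, 645 and 360 with a positive and 251, 251 and 150 with a negative contrast. For Mmp12 the difference was −0.73 ± 1.23 SE, a spread that would hold a large loss as well as none.

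Control hearts were compared between time points in the same way, and 0 of 10 genes were called for D15 against D10 (0.0919% of all genes) or for D21 against D10 (0.214%). With unadjusted p-values under 0.05, edgeR's quasi-likelihood test passed 2 and 3 of the 10 genes, against 1091 and 1991 of all 16318 genes tested. The other 3 tests called 0 of the 10. Of all genes, DESeq2 called 17 higher and 35 lower for D15 against D10, and 75 and 52 for D21 against D10. For D15 against D10 the genes under 0.05 were Mmp8, at −2.33 ± 0.75 SE on the log2 scale, and Mmp9, at −1.71 ± 0.63 SE. For D21 against D10 they were Mmp8 at −2.01 ± 0.72 SE, Timp4 at −1.32 ± 0.47 SE and Mmp3 at −1.05 ± 0.47 SE. Mmp8 and Mmp9 were highest in the D10 controls. The summed level of 8 neutrophil markers was between 139 and 262 CPM in these hearts. It was between 20.5 and 92.4 CPM in D15 controls and between 13.3 and 125 CPM in D21 controls. The control groups also differed in the summed atrial markers. That sum was between 208 and 497 CPM at D10, between 240 and 2311 CPM at D15 and between 1663 and 2561 CPM at D21. The part of either marker list in the Mmp8, Mmp9, Mmp3 and Timp4 differences was not tested.

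Levels per exon length placed the 10 genes in a different order in control and EAM hearts. In D15 controls Timp2 led at 72.2 ± 5.29 RPKM (SD, n = 4), followed by Mmp2 at 31.0 ± 4.35 and Timp3 at 23.6 ± 3.73 RPKM. The libraries of Timp2 did not overlap those of Mmp2, and those of Mmp2 and Timp3 overlapped. Mmp3, Timp1 and Mmp14 followed at 6.72, 6.45 and 6.41 RPKM and could not be ordered, and Mmp9, Mmp8 and Mmp12 were all under 1 RPKM on average. The same 3 genes led in the controls of D10 and D21. In D15 EAM hearts Timp1 led at 541 ± 44.1 RPKM, with no overlap with Mmp3 at 118 ± 33.6 RPKM. Mmp3 did not overlap Timp2 at 72.3 ± 13.1 RPKM, and Timp2, Mmp2 (65.2 ± 15.6 RPKM) and Mmp12 (59.7 ± 38.9 RPKM) overlapped. Timp4 was lowest, at 2.24 ± 2.31 RPKM. The order depended on the gene length. Per median protein-coding transcript, Mmp12 was at 328 ± 213 RPKM in D15 EAM hearts, above Mmp3 at 118 ± 33.6 RPKM on average and overlapping Timp1 at 560 ± 45.6 RPKM, and Mmp3 overlapped Timp2. In D15 controls Timp3 then stood above Mmp2, at 75.7 ± 11.97 against 55.7 ± 7.81 RPKM, and their libraries overlapped.

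The inhibitor transcripts therefore changed in makeup. Timp1 was 6.11 ± 1.37% (SD, n = 4) of the summed RPKM of the 4 inhibitors in D15 controls and 84.5 ± 0.585% in D15 EAM hearts. Timp2 went from 68.0 ± 3.47% to 11.2 ± 1.36% at an almost equal level of its own. At D10 Timp1 held 81.2, 16.5, 49.8 and 19.0% of the sum in EAM hearts and 19.8, 14.0, 7.67 and 4.74% in controls. At D21 it held 69.9, 61.7, 19.9 and 88.6% in EAM hearts and between 3.98 and 7.42% in controls. The 2 groups overlapped at D10 and not at D15 or D21. The summed inhibitor level was 640 ± 49.1 RPKM in D15 EAM hearts and 106 ± 7.67 RPKM in D15 controls.

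The metalloproteinase sum changed from a single leading gene to a mixture. It was 46.2 ± 4.68 RPKM in D15 controls, of which Mmp2 was 67.0 ± 4.23%, and 340 ± 80.8 RPKM in D15 EAM hearts, of which Mmp2 was 19.2 ± 1.10%. In D15 EAM hearts Mmp3 held 35.7 ± 10.3% and Mmp12 16.3 ± 7.94%, against 14.6 ± 3.85% and 0.808 ± 0.944% in controls. The share of Mmp14 was 13.8 ± 1.71% in D15 controls and 12.6 ± 0.329% in D15 EAM hearts, so it differed by less than the spread of the controls. The ratio of the metalloproteinase sum to the inhibitor sum was 0.435 ± 0.0264 in D15 controls and 0.527 ± 0.0924 in D15 EAM hearts, and the hearts of the 2 groups overlapped. This ratio depended on the gene length used. With the median length of the protein-coding transcripts in place of merged exons, chosen once the first values were known, it was 0.378 and 0.953. The overlap of the hearts was found with merged exons and need not hold with transcript lengths. The lengths differ most for Mmp12, with 7237 bases of merged exons and a median transcript of 1318.5 bases. With these lengths the Timp1 share was 3.11% in controls and 72.6% in EAM hearts, and the Mmp12 share of the D15 EAM sum was 40.3%.

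**Figure D3:**
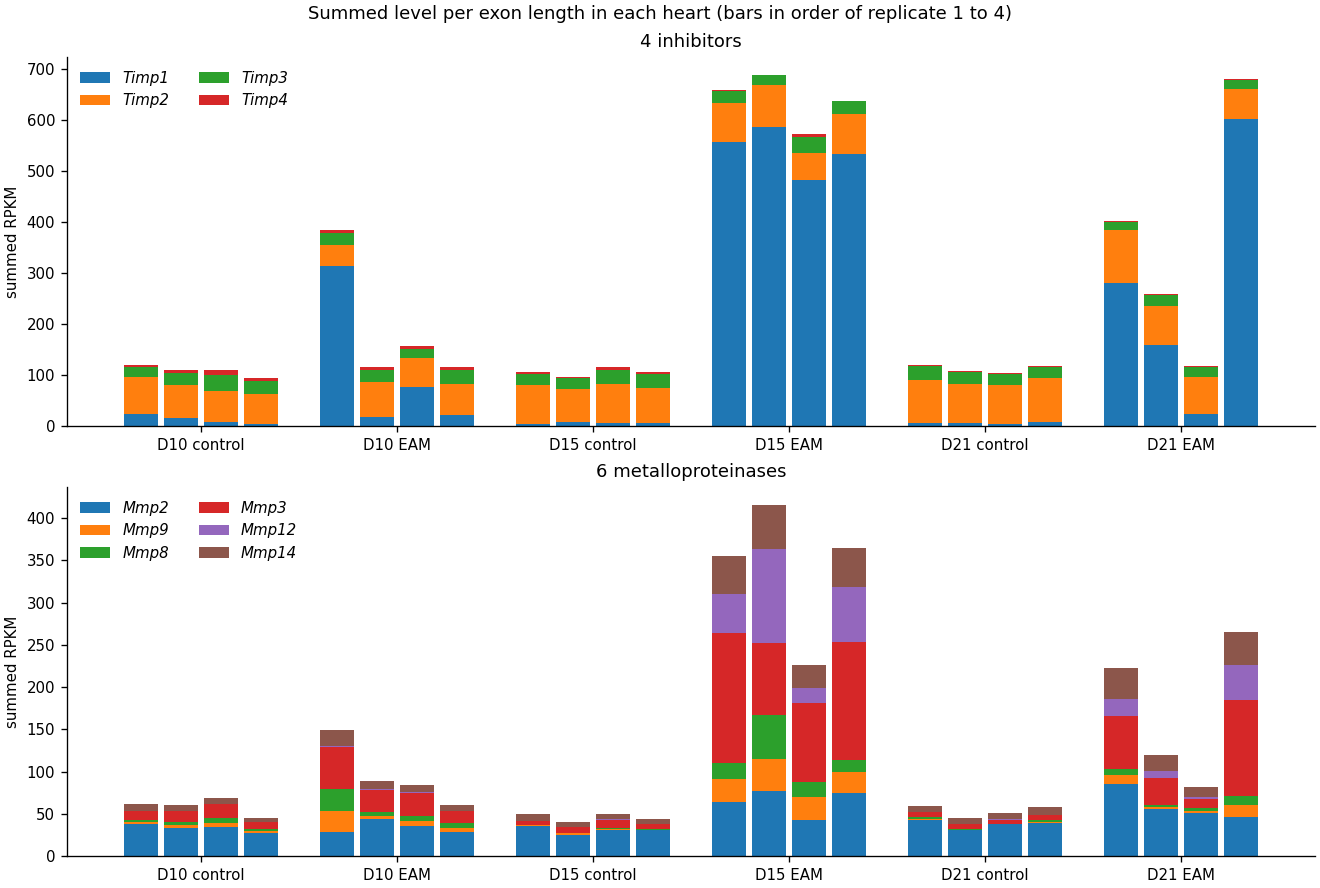
Summed level per merged exon length (RPKM) of the 4 inhibitors (top) and the 6 metalloproteinases (bottom) in each of the 24 hearts, stacked by gene and ordered by replicate. Timp1 made up between 83.8 and 85.2% of the inhibitor sum in D15 EAM hearts and at most 7.92% in D15 controls, and Mmp2 was the largest part of the metalloproteinase sum in every control.

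The genes induced at D15 can be set beside Ptprc in single hearts. Replicate 1 of the D10 EAM hearts and replicate 1 of the D21 EAM hearts had similar Ptprc levels of 195 and 151 CPM. Timp1 was 278 and 249 CPM in these 2 hearts and Mmp3 90.1 and 113 CPM. Mmp12 was 9.93 CPM in the D10 heart and 149 CPM in the D21 heart, and Mmp9 was 90.9 and 34.8 CPM, in the opposite order. Mmp2 was 95.7 CPM in the D10 heart, within the range of the controls, and 290 CPM in the D21 heart. Replicate 4 of the D21 EAM hearts was closer to the D10 heart in Ptprc, at 233 CPM. It held 535 CPM of Timp1, 206 CPM of Mmp3, 301 CPM of Mmp12, 50.7 CPM of Mmp9 and 157 CPM of Mmp2. These are single hearts chosen after their values were seen. The D21 hearts carried another library code and few atrial markers, so the difference was not tested. Summed macrophage markers were 2993 and 4099 CPM in the 2 replicate 1 hearts, and summed neutrophil markers were 841 and 454 CPM.

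**Figure D4:**
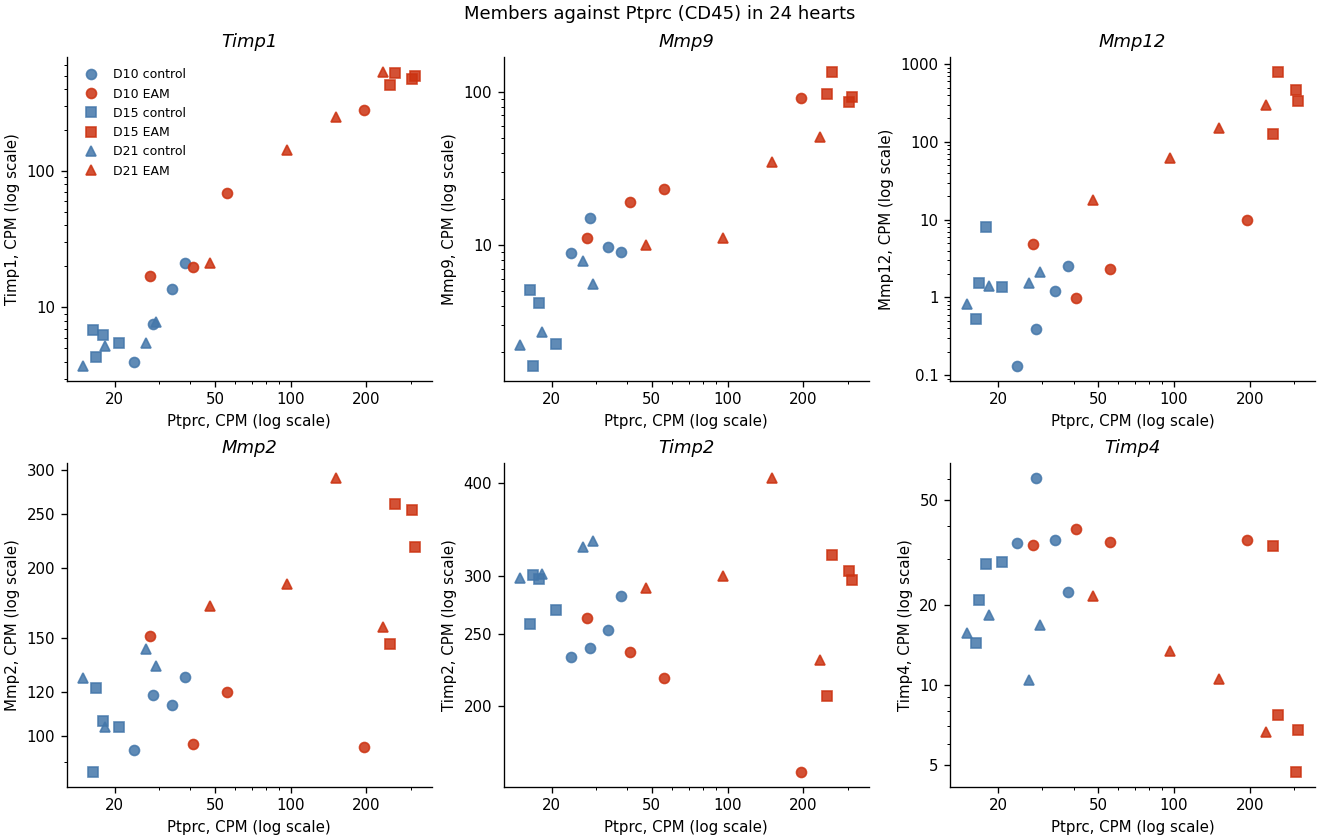
Levels of 6 genes against Ptprc (CD45) in 24 hearts, in CPM on log axes, with circles for D10, squares for D15 and triangles for D21 (blue, control; red, EAM). Timp1 was highest, at 535 CPM, in the D21 EAM heart with 233 CPM of Ptprc. The D15 EAM hearts held more Ptprc and between 429 and 521 CPM of Timp1. Mmp12 was at 9.93 CPM in the D10 EAM heart with 195 CPM of Ptprc, and Timp2 was between 163 and 406 CPM throughout.

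Markers of several cell types moved with the metalloproteinases, and their part in the changes was not tested. At D15 all 8 macrophage markers, all 8 neutrophil markers and all 6 T cell markers were induced. The summed macrophage markers were between 3433 and 4727 CPM in D15 EAM hearts against between 455 and 511 CPM in controls, and the neutrophil sum between 604 and 1091 CPM against between 20.5 and 92.4 CPM. Of 8 fibroblast markers, 3 were induced and 1 repressed at D15, and their sum was between 9566 and 17710 CPM against between 3539 and 4398 CPM. The 3 induced genes were the collagens Col1a1, Col1a2 and Col3a1, which carried the higher sum. The repressed gene was Gsn, from a mean of 1862 to 726 CPM, and Pdgfra (90.6 and 148 CPM), Lum (171 and 247 CPM), Dcn (930 and 1037 CPM) and Tcf21 (15.8 and 12.2 CPM) were not called; these markers were singled out after their values were seen. Cardiomyocyte markers were lower, with 4 of 7 repressed. Endothelial markers were lower, with 2 of 6 repressed and a sum between 685 and 741 CPM against between 979 and 1321 CPM. Of 4 adipocyte markers 0 were called at D15 in edgeR's quasi-likelihood test, where 1 passed an unadjusted p of 0.05. At D21, 5 macrophage markers, 1 neutrophil marker, 6 T cell markers and 3 fibroblast markers were induced, and 4 of 4 atrial markers and 1 of 4 adipocyte markers were repressed. The adipocyte sum was between 0.249 and 3.05 CPM in D21 EAM hearts against between 8.67 and 25.4 CPM in D21 controls.

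The genes with profiles most like each member over the 24 hearts were found among 14207 other genes by the root mean square difference on the log2(CPM + 1) scale, after removal of the control mean. The nearest to Mmp9 were Csf3r (0.310), Il1f9 and Cxcr2, and to Mmp8 Cxcr2 (0.403), Wfdc21 and Gm5483. Csf3r and Cxcr2 encode receptors carried by neutrophils. The nearest to Mmp14 were Col5a2 (0.219), a fibrillar collagen chain, Src and Aebp1, and to Mmp2 Pltp (0.192), Ltbp3 and Cd248. Mmp3, by contrast, lay nearest to the leukocyte genes Plek (0.324), Fcgr2b and Vav1. Mmp12 had no close neighbour, with Tnc at 0.923, Spp1 and Itgax. Timp1 was nearest to Il1rn (0.352), the interleukin-1 receptor antagonist, followed by Hp and F10. The 3 uninduced inhibitors had other neighbours: Mxra8 (0.108), Fndc10 and Gas1 for Timp2, Bdp1 (0.132), Rc3h1 and Cnot1 for Timp3, and 4930481A15Rik (0.416) and Gm11730 for Timp4. Genes that change little all lie close together on this measure, and it says nothing of shared control.

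Of 80 further genes of extracellular proteolysis, 79 had a read, and 62, 64 and 62 were tested at D10, D15 and D21. In edgeR's quasi-likelihood test 0 were called at D10, where 21 of 62 passed an unadjusted p of 0.05 (2292 of 15029 over all genes). DESeq2 induced 2 of the 62 and 48 of all genes, and the likelihood ratio test induced 1 and 45. At D15, 30 of 64 were induced and 3 repressed, against 18.1% and 12.9% of all genes. At D21, 9 of 62 were induced and 4 repressed, against 4.13% and 1.16% of all genes. Among the other metalloproteinases, 3 of 9 tested were induced and 2 repressed at D15. Mmp25, a membrane-anchored enzyme of leukocytes, rose from 0.539 ± 0.305 to 15.0 ± 3.54 CPM (SD, n = 4; log2 4.79 ± 0.34 SE), followed by Mmp19 (log2 3.32 ± 0.18 SE) and Mmp23 (log2 1.57 ± 0.24 SE). Mmp15, a membrane-type enzyme, fell from 236 ± 11.1 to 61.9 ± 11.8 CPM, a change of −1.92 ± 0.13 SE on the log2 scale, in the opposite direction to Mmp14. Mmp28 fell as well (log2 −1.03 ± 0.16 SE). At D21 Mmp25 (log2 3.54 ± 0.70 SE) and Mmp19 (log2 2.07 ± 0.40 SE) were induced.

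Among the ADAMTS proteases, which cut proteoglycans and process collagen precursors, 6 of 16 were induced and 1 repressed at D15. The largest changes were Adamts4, an aggrecanase (log2 4.68 ± 0.27 SE), Adamts12 (log2 2.14 ± 0.28 SE) and Adamts14 (log2 1.92 ± 0.20 SE), and Adamts17 fell (log2 −1.51 ± 0.31 SE). At D21 Adamts2, which trims procollagen, was induced (log2 1.01 ± 0.19 SE), and Adamts8 (log2 −3.30 ± 0.45 SE) and Adamts19 (log2 −2.03 ± 0.31 SE) were repressed. The D21 EAM hearts were also those with the low atrial marker sum, whose part in these decreases was not tested. Of the membrane-bound ADAM sheddases, 4 of 8 were induced at D15, led by Adam8 (log2 6.83 ± 0.50 SE), Adam12 (log2 4.10 ± 0.19 SE) and Adam9 (log2 1.45 ± 0.12 SE). Adam8 was also induced at D21 (log2 5.05 ± 0.63 SE).

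Of 19 regulators tested at D15, 10 were induced and 0 repressed (17 passed an unadjusted p of 0.05 in edgeR's quasi-likelihood test, as did 11969 of all 15693 genes tested). Serpinb2, an inhibitor of plasminogen activators, was at most 0.104 CPM in D15 controls and between 46.2 and 92.2 CPM in D15 EAM hearts. Lcn2, which binds Mmp9, rose from 8.42 ± 4.36 to 457 ± 77.9 CPM (log2 5.78 ± 0.41 SE), and Plaur, the urokinase receptor, rose with log2 4.44 ± 0.13 SE. Of 12 serine proteases, cathepsins and related genes tested, 7 were induced at D15. The neutrophil granule genes Elane, Mpo and Prtn3 had the largest fitted changes of these at D15 but were low in EAM hearts, at 3.27 ± 2.72, 9.05 ± 6.69 and 8.24 ± 4.58 CPM. At D21 the regulator Lcn2 (log2 4.70 ± 0.74 SE) was induced and Spock2 (log2 −1.94 ± 0.29 SE) repressed. Ctss, a macrophage cathepsin (log2 4.02 ± 0.53 SE), Serpina3n (log2 3.60 ± 0.45 SE) and Ctsk (log2 1.61 ± 0.29 SE) were induced at D21, and the mast cell protease Mcpt4 was repressed (log2 −1.78 ± 0.23 SE). The part of the low atrial marker sum of the D21 EAM hearts in the decreases of Spock2 and Mcpt4 was not tested.

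**Figure D5:**
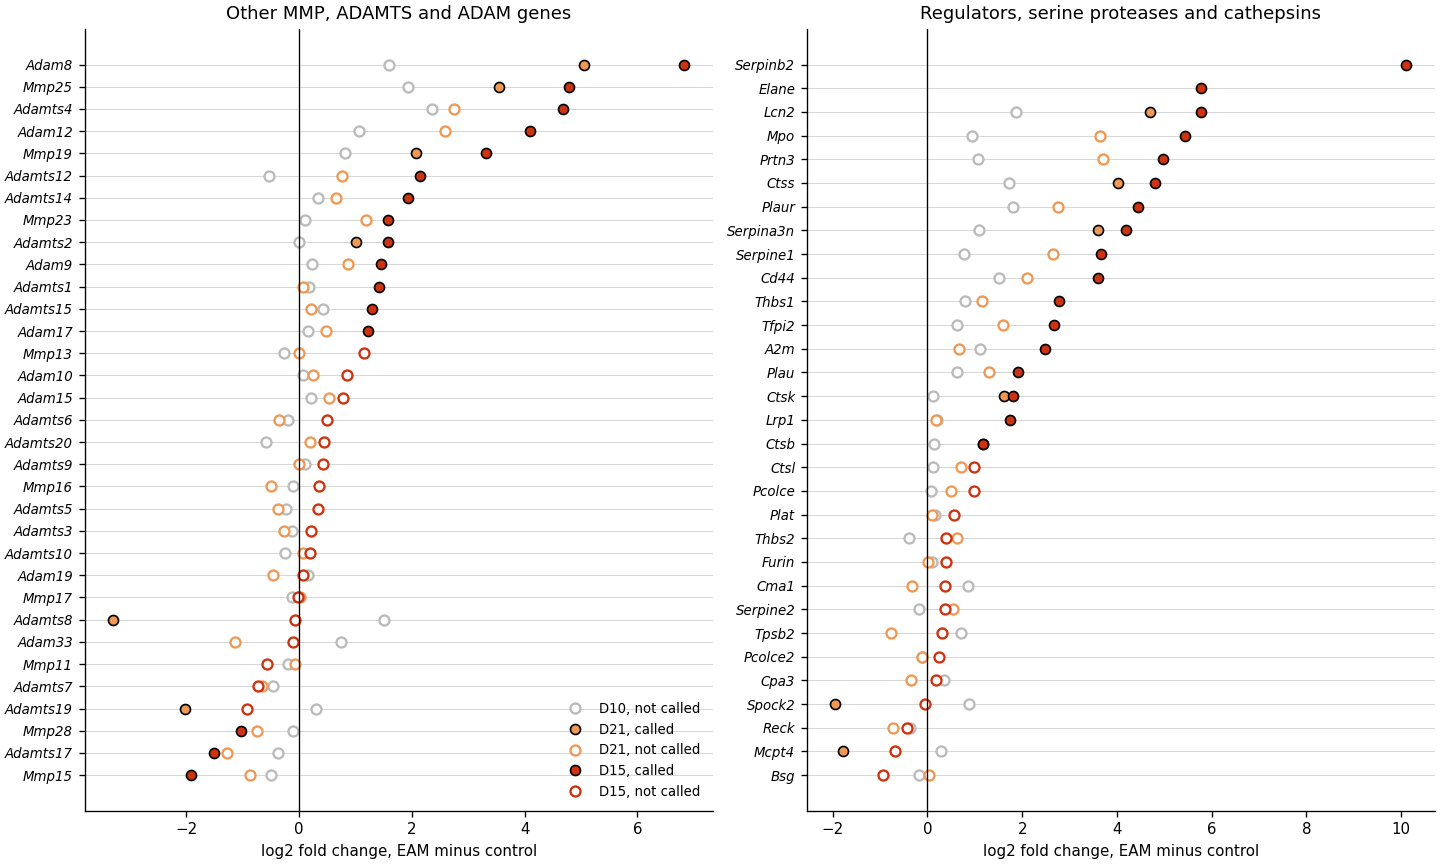
Fitted log2 fold change between EAM and control hearts at D10, D15 and D21 for other metalloproteinase, ADAMTS and ADAM genes (left) and for regulators, serine proteases and cathepsins (right), ordered by the D15 value; filled points were called. Adam8 and Mmp25 lead the left panel and Mmp15 ends it, and no gene was called at D10.

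The D15 calls of Mmp3, Mmp8, Mmp9, Mmp12, Mmp14 and Timp1 held under all 15 alternatives that were run, and the D21 calls were less firm. Leaving out any of the 4 D21 controls, or EAM replicate 1 or 2, lost all 4 D21 calls. In these 6 fits at most 8 of all genes tested were induced, against 630 of 15266 with all 8 libraries. Over the 8 libraries left out in turn the log2 fold changes were between 2.57 and 3.54 for Mmp3, between 5.73 and 6.87 for Mmp12, between 1.59 and 2.05 for Mmp14 and between 4.65 and 5.80 for Timp1, with the lowest of Mmp3, Mmp12 and Timp1 without EAM replicate 4. Without EAM replicate 4, 2 genes were called (Mmp12 and Timp1), and without replicate 3, 5 were called, with Mmp9 in addition. Limma-voom called 0 of the 10 genes at D21 and induced 80 of 15266 genes in all, and DESeq2 called 6 and induced 1364 in all. With the replicate number as a block, Mmp3 and Mmp14 were not called at D21 and Mmp9 was, with 601 genes induced in all. With all 12 controls the D15 log2 value was 4.08 for Mmp9, 3.91 for Mmp8 and 7.91 for Mmp12, and the calls held. Without D10 EAM replicate 1 the D10 log2 value was 0.74 for Mmp9, 0.48 for Mmp8 and 1.29 for Mmp12.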

How the data were processed

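RNA from a piece of each of 24 mouse hearts was sequenced as read pairs. The authors aligned the reads to GRCm38 with HISAT2 (2.0.4 in the submitters' processing notes), removed duplicates with Picard and assigned the rest to Ensembl genes with featureCounts. The deposited values are raw counts per gene, without normalization. Samples were grouped by their titles. The table and the single files differed in 0 cells, and 92 spike-in features held 0 reads and were left out.

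Time points were tested separately on 8 libraries each, keeping genes that reached 10 reads in 4 or more of them, with TMM factors and edgeR's quasi-likelihood test of EAM against control (edgeR 4.0.16, R 4.3.3; Benjamini-Hochberg adjustment, FDR under 0.01 and at least 2-fold). Changes of the EAM effect and of control hearts between time points were contrasts in a fit of all 24 libraries. CPM used TMM factors of all libraries, and RPKM divided CPM by merged exons of GENCODE M21. Removing duplicates can lower the counts of strongly expressed genes. Nothing says whether replicates differ in more than the mouse, so p-values measure the spread between these hearts. Counting floors cover counting error only.

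The members, gene lists and tests were chosen with earlier results of these data known. Named are all members, Ptprc, the 3 largest called changes per list and direction, and the 3 nearest profiles per member, apart from 1 such gene and 1 marker list that are not reported here. DESeq2 1.42.0, limma 3.58.1, other normalizations and filters, other controls, a replicate block and leaving out each library were alternatives. The tests were checked on simulated data. Tables and figures used Python 3.11.15, pandas 2.3.3, numpy 2.4.6 and matplotlib 3.10.9.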

Additional observations from a re-analysis of the deposited data

Results flagged for a closer look

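The effect of EAM was larger at D15 than at D10 for all 6 metalloproteinases, by 1.02 for Mmp2, 3.19 for Mmp9, 3.653 for Mmp8, 2.853 for Mmp3, 5.16 for Mmp12 and 1.942 for Mmp14 on the log2 scale, as a tested contrast in edgeR over 24 hearts. The calls of Mmp3 and Mmp14 held in all 16 fits that left out 1 library, and those of Mmp2, Mmp12, Mmp8 and Mmp9 in 5, 6, 7 and 9 of them. Each called difference had D15 EAM hearts that were all above their controls, and D10 EAM hearts that overlapped theirs.

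In 60 groups of 4 hearts, 2 held a single heart far from the other 3, and chance gives about 1 in 20. Mmp9 was 14.99 CPM in replicate 3 of the D10 controls, against between 8.88 and 9.71 CPM in the others, and Mmp8 was highest in the same heart. Timp3 was 231 CPM in replicate 1 of the D21 controls, against between 178 and 182 CPM in the others.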

How the results depend on the processing

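The calls at D15 varied least. Of the values of single genes, 783 kept their direction and side of the threshold, 74 lost and 16 gained the threshold and 17 changed sign. Of 24 ratios and shares of summed levels, 15 moved by over 1 SD with the other gene length. Of the counts, 227 stayed within 1.5 times the reported one and 41 did not. With all 12 controls 4 members were induced at D10 (0 with D10 controls), where 632 of 15545 genes tested were induced, and 10 other proteolysis genes (DESeq2 2, likelihood ratio test 1). With no fold limit 7 other genes were repressed at D15. At D21 limma-voom induced 0 members, and other proteolysis genes induced were 19 with DESeq2, 19 with the likelihood ratio test, 3 with limma-voom and 21 with all 12 controls (9 as reported). Of all genes these settings induced 1364, 1356, 80 and 1580 (630 as reported). Limma-voom called 3 members for the effect of D15 minus D10 and lost Mmp2, Mmp8 and Mmp12. Of all genes it called 826 with a positive and 1196 with a negative contrast, against 878 and 1199 as reported. Leaving out 1 library at a time gave 0 to 5 members induced at D21 and 0 to 1 repressed at D15 (Timp4). It gave 2 to 7 members for the effect of D15 minus D10, 0 to 19 other genes induced and 0 to 5 repressed at D21, and 2 to 4 repressed at D15.

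Small differences changed sign. With all 12 controls Timp4 was 0.494 at D10 and Timp2 0.1419 at D21, and with limma-voom Timp2 was −0.003955 at D15. Leaving out 1 library gave −0.1325 to 0.104 for Mmp2, −0.2178 to 0.02523 for Timp3 and −0.2945 to 0.2012 for Timp4 at D10. It gave −0.02102 to 0.1731 for Timp2 and −0.02898 to 0.2159 for Timp3 at D15, and −0.1852 to 0.09066 for Timp2 and −0.584 to 0.0006816 for Timp4 at D21. The Timp2 effect of D21 minus D15 ran from −0.1849 to 0.09339. For these changes the cause was not tested.

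The replicate numbers may or may not pair the hearts. The deviations of same-numbered hearts correlated at 0.0966, 0.177, 0.303 and 0.232 at D21 (0.368, −0.0773, −0.0827 and 0.368 at D10, and between −0.0955 and 0.0351 at D15), so they were not taken as pairs. With the number as a replicate block, 3 members were induced at D21 (Mmp9, Mmp12 and Timp1, with the calls of Mmp3 and Mmp14 lost), 7 other proteolysis genes were induced and 3 repressed at D21, 5 members gained effect from D10 to D15 (Mmp12 lost), and Mmp2 was −0.0007755 at D10. Of all genes the block gave 601 induced and 137 repressed at D21, and 1056 with a positive D15 minus D10 contrast.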
